A study of Mus musculus with 3 samples.

Results

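Lysosomal hydrolases and membrane proteins were followed in mouse liver through 36 genes, a list of known lysosomal genes set by name. All 36 were found among the 49492 entries of the count tables, and all 36 passed the filter that left 14585 genes, a level of at least 1 CPM (read counts scaled to library size) in any library. The livers came from CD-1 mice, an outbred laboratory strain. One library came from mice given phosphate-buffered saline (the control) and the others from mice given zinc oxide (ZnO) nanoparticles by mouth, a daily 25 mg/kg of body weight, over 8 or 12 weeks. The study's title ties the particles to insulin resistance. The labels name no allele or transgene, and they do not give sex, age, the number of animals behind a library, or when the control was taken. Each group is 1 library, so the differences below cannot be set against a spread between animals and carry no p-values.

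The lysosome is the acidic compartment in which cells break down proteins, glycans and lipids delivered by endocytosis and autophagy. Most of its soluble enzymes are made in the endoplasmic reticulum, tagged with mannose-6-phosphate and sorted to lysosomes by receptors, and loss of single enzymes causes storage diseases. The transcription factor TFEB and its relatives raise many lysosomal genes together by binding E-boxes with the core CACGTG near their start sites, and they are held in the cytoplasm when mTORC1 is active. In liver both hepatocytes and Kupffer cells, the resident macrophages, are rich in lysosomes. By role the members were 5 membrane proteins (Lamp1, Lamp2, Scarb2, Npc1, Mcoln1), 10 proteases (Ctsa, Ctsb, Ctsc, Ctsd, Ctsh, Ctsl, Ctss, Ctsz, Lgmn, Tpp1), 9 glycosidases (Gaa, Gla, Glb1, Gusb, Hexa, Idua, Man2b1, Naglu, Neu1), 4 sulfatases (Ids, Arsa, Arsb, Galns), 7 lipid enzymes and their helper proteins (Lipa, Npc2, Ppt1, Psap, Smpd1, Asah1, Galc) and the regulator Tfeb.

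Library totals were 13614979 (control), 14258770 (8 weeks) and 13263211 counts (12 weeks), so that 3 counts were worth 0.209 to 0.227 CPM. All 10 hepatocyte markers were detected, with a summed level of 55002 to 62532 CPM. Kupffer cell and macrophage markers differed between the libraries: the control held 270 CPM of the 20 genes together, the 8-week library 679 and the 12-week library 537, and 0 of the 20 were at 0 counts in the control. Slc40a1 alone supplied 155, 211 and 182 CPM of these sums. At 2-fold, 17 of these 20 markers were higher at 8 weeks and 15 at 12 weeks (all kept genes, 4.15% and 3.11%). Of the 20, Fcgr1 and Tyrobp, at 0.147 and 0.516 CPM in the control, passed the filter only through treated libraries. Skeletal muscle markers (10 genes) had 26 counts together (control), against 2700 (8 weeks) and 18 (12 weeks), which sets the 8-week library apart. Median log2 ratios to the control at 8 and 12 weeks were 0.37 and 0.30 for endothelial and 0.34 and 0.39 for stellate cell markers. Hepatocyte markers had 0.27 and 0.44. Lymphocyte markers (5 of 13 genes kept) had 0.11 and -0.16, and cholangiocyte markers (3 of 6 kept) -0.26 and 0.17. Monocyte and neutrophil markers (5 of 11 kept) had 0.44 and 0.84, with 3 and 5 of the 5 above 0. Erythroid markers (5 of 7 kept) had 0.55 at both times, with 4 of the 5 above 0 at each. The part of any of these cell types in the lysosomal values was not tested. In bulk tissue, fewer cells of a type and less RNA per cell cannot be told apart.

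Because the E-box is the feature best known to tie these genes together, promoter sequences are shown first. RefSeq promoter windows (GRCm38.p6, 250 bases before to 50 after a start) matched 31 of the 36 members. Ctsb, Ctsh, Galns, Asah1 and Npc1 had none. The palindrome CACGTG, which reads the same on both strands, was present for 11 of the 31 (35.5%), against 8.09% of all 27025 genes with a window. The longer palindrome TCACGTGA, which contains CACGTG, was present for 4 of the 31 (12.9%) against 1.12% of all genes with a window. Genes with a window were counted whether or not they passed the filter, unlike the shares over kept genes given below. The 6 stretches below run 5′ to 3′ on the gene's strand and lie outside the gene's annotated exons, with each CACGTG in capitals. All but that of Lgmn lie before the gene's first exon base. Lamp1 is shown for its 4 matches, Glb1, Lgmn, Gaa and Arsa as members with a match that had high or low ratios, and Ctss as the member with the highest ratio.
Lamp1 (chr8:13159041-13159160, plus strand): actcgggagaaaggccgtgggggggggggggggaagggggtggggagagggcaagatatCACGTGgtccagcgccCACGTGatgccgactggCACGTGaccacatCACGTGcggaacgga
Glb1 (chr9:114400956-114401075, plus strand): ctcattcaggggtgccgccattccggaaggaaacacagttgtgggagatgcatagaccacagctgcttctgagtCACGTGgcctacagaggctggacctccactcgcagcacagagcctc
Lgmn (chr12:102439093-102439212, minus strand): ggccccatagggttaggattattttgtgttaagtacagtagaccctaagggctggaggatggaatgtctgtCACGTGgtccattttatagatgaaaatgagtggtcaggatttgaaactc
Gaa (chr11:119267767-119267886, plus strand): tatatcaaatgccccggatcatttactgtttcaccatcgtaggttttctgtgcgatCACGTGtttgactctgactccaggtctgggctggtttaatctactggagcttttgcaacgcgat
Arsa (chr15:89477426-89477545, minus strand): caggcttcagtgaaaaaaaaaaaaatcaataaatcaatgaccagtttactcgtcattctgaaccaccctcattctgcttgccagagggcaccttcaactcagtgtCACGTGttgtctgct
Ctss (chr3:95526666-95526785, plus strand): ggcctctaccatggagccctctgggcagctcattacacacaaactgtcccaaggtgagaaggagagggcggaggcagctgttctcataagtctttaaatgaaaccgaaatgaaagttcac
The 4 copies in Lamp1 begin 61, 45, 28 and 15 bases before the start (written -61, -45, -28 and -15 in the plot of matches). Lgmn has 2 listed starts, and its stretch lies before the one further downstream, between annotated exons and inside the gene. The window of Ctss held no CACGTG. A match is a run of letters, not a measured binding site.

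**Figure D1:**
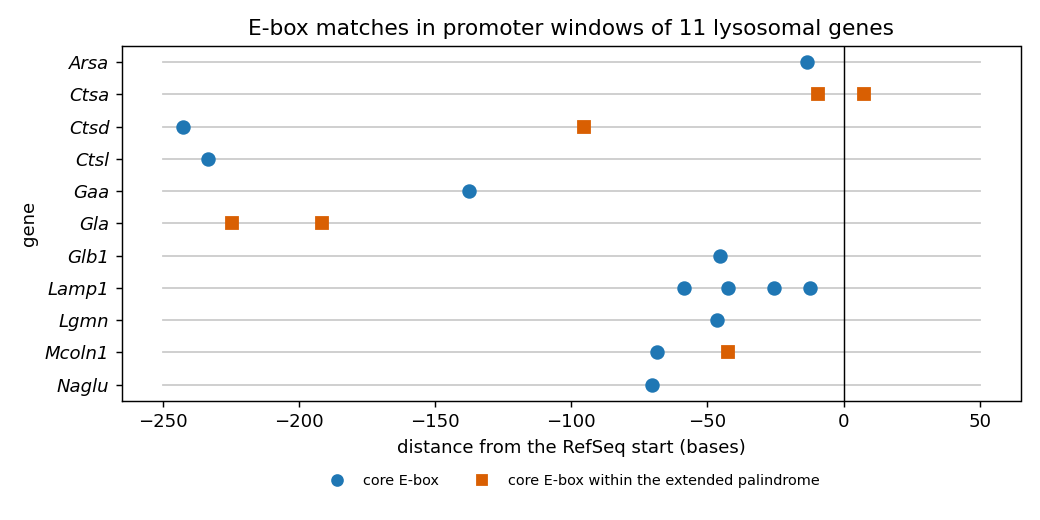
Position of CACGTG matches (circles) in the promoter windows of the 11 members that hold one, as distance in bases from the RefSeq start, with squares for copies inside TCACGTGA. Lamp1 holds 4 copies between -61 and -15, and Ctsa, Ctsd, Gla and Mcoln1 are the 4 members with squares.

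Together the 36 genes took a similar share of each library. They made up 0.436% of control counts (exact 95% binomial interval 0.433 to 0.440), 0.449% at 8 weeks (0.446 to 0.453) and 0.438% at 12 weeks (0.434 to 0.441). These intervals, like those of the folds below, are of counting error alone and do not hold the variation between animals or PCR copies. Of the members' counts, Lamp1, Lamp2 and Ctsl supplied 43.6% (control and 8 weeks) or 46.7% (12 weeks). To compare genes with each other, levels were divided by exon length. On that scale (CPM per kb) Ctsl, a cysteine protease of broad activity, stood first with 329 (control), 346 (8 weeks) and 403 (12 weeks). Lamp1, a heavily glycosylated protein of the lysosomal membrane, came second with 249, 276 and 280 CPM per kb. Ctsz, a carboxypeptidase, came next (140, 96.9 and 119), and Psap, the precursor of the saposins that help lipid hydrolases act, followed (85.4, 76.6 and 68.5). The order of these 4 was the same in all 3 libraries. At the other end Tfeb stood at 0.897, 0.788 and 0.879 CPM per kb and Gla, the alpha-galactosidase missing in Fabry disease, at 0.880, 0.663 and 0.971. The median member had 10.3, 14.4 and 12.4 CPM per kb, and 30 of the 36 lay above the median of all kept genes (3.64 to 3.66) in each library. Ctss moved most in this order, from 19th in the control to 9th at 8 weeks and 10th at 12 weeks.

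**Figure D2:**
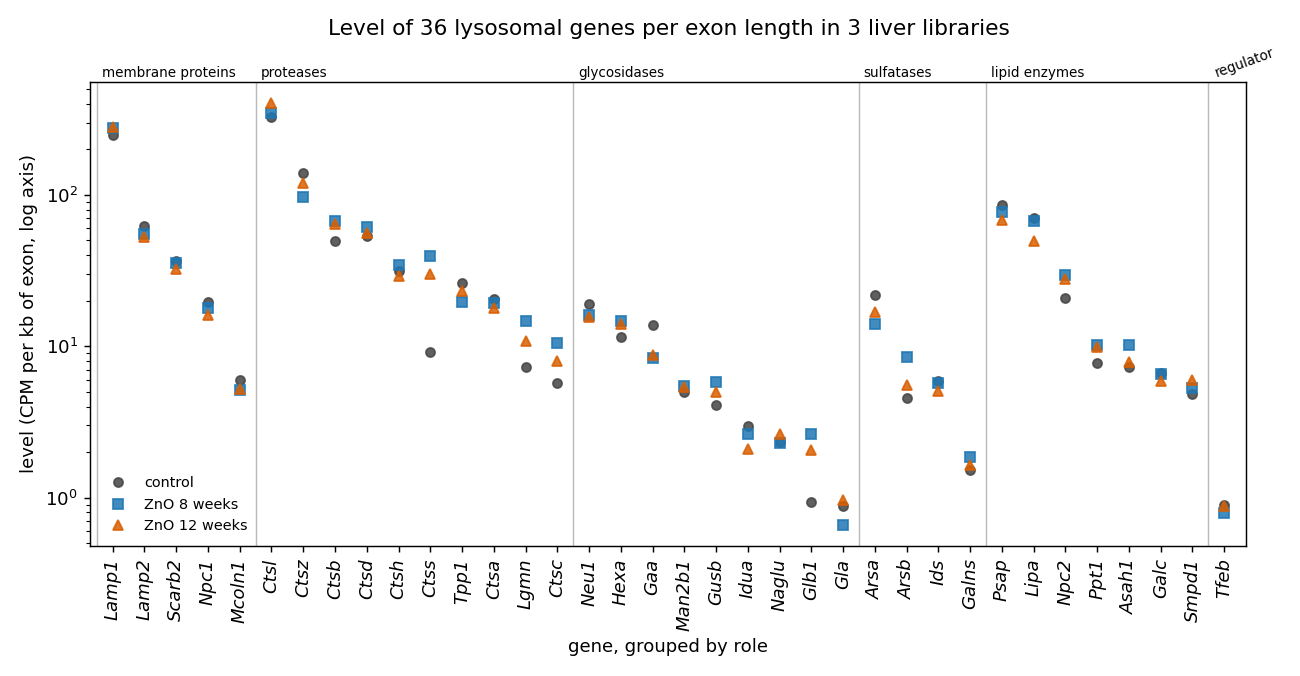
Level of each member per kb of exon (CPM per kb, log axis) in the control (circles), 8-week (squares) and 12-week (triangles) libraries, grouped by role. Ctsl and Lamp1 stand above 240 and Tfeb and Gla below 1 in every library, and the 3 symbols of most genes lie close together, with Ctss and Glb1 the members whose control symbol stands farthest below the others.

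The first comparison set the liver after 8 weeks of ZnO nanoparticles against the control. Of the lysosomal genes, 17 of 36 lay within 0.2 of the control on the log2 scale (all kept genes, 5978 of 14585). Ctss and Glb1 were the 2 of 36 that passed 2-fold higher, against 4.15% of all kept genes. None of the 36 passed 2-fold lower, against 2.1% of all genes. A gene was called when its log2 ratio of CPM + 1 reached 2-fold, which sorts genes by size of difference only. The median log2 ratio of the members was 0.03, beside -0.02 over all kept genes, and 18 of 36 were above 0 (all genes, 48.4%). At 1.5-fold, 5 were higher (Ctss, Glb1, Lgmn, Ctsc and Arsb; all genes, 10.6%) and 2 lower (Gaa and Arsa; all genes, 7.97%). The counting interval of the fold lay above 1 for 15 members and below 1 for 9, where the shares over all genes were 23.6% and 24.2%. That measure depends on depth, and the members are more abundant than the typical gene.

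In the second comparison, 12 weeks against the same control, Ctss was the only 1 of the 36 called 2-fold higher (all genes, 3.11%), and 0 were 2-fold lower (1.34%). The median log2 ratio was 0.08, beside -0.01 over all kept genes, with 19 of 36 above 0 (48.9% of all genes) and 17 below (51%). That median took the opposite sign, -0.11, when genes under 10 CPM in every library were left out. At 1.5-fold, Ctss and Glb1 were higher (9.28% of all genes) and Gaa was lower (6.22%). The counting interval lay above 1 for 13 members (21% of all genes) and below 1 for 15 (22.4%). Both comparisons use 1 control library, so an odd value in that library would enter both.

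Set directly against each other, 12 weeks and 8 weeks had 0 members 2-fold apart in either direction, where 1.28% of all genes were higher and 1.23% lower at 12 weeks. The members leaned downward: 25 of 36 had a log2 ratio below 0 (all genes, 50.1%), and 11 had one above 0 (49.9%), with a median of -0.11 beside 0.00 over all genes. Of the related lists described below, other lysosomal hydrolases had 24 of 34 kept genes below 0. V-ATPase subunits had 10 of 18, mannose-6-phosphate sorting 8 of 14 and the TFEB family and its controllers 12 of 21. Lysosomal membrane and transport had 11 of 25 below 0 and autophagy 10 of 30. At 1.5-fold, Arsb alone was lower (all genes, 4.73%) and 0 were higher (5.41%). The counting interval lay below 1 for 13 members (19.2% of all genes) and above 1 for 4, Ctsl, Ctsz, Tpp1 and Arsa (19%). In the same comparison all 20 Kupffer cell markers had a log2 ratio below 0, with a median of -0.32. A tie between these markers and the members' values was not tested.

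**Figure D3:**
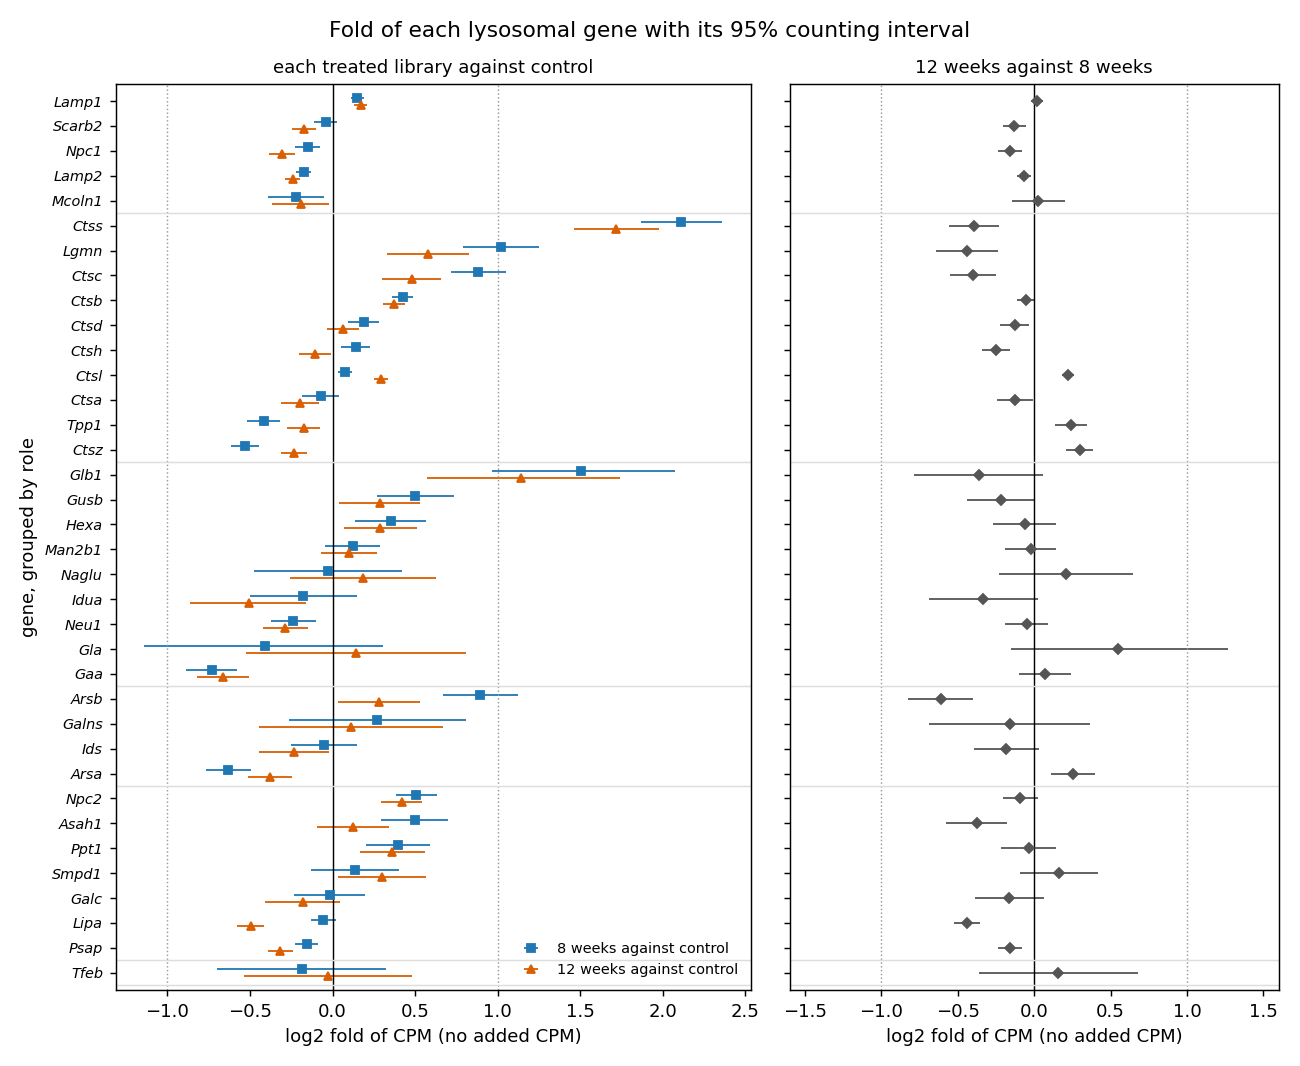
Log2 fold of CPM for each member, without an added CPM, with its 95% counting interval: squares for 8 weeks and triangles for 12 weeks against the control (left), diamonds for 12 against 8 weeks (right), dotted lines at 2-fold. Ctss and Glb1 lie farthest right against the control in the left panel and Gaa farthest left, and 25 of 36 diamonds lie left of 0.

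Among the 10 proteases, Ctss, Lgmn and Ctsc had the highest ratios to the control at both times. Ctss encodes cathepsin S, a cysteine protease best known from antigen-presenting cells, where it trims the invariant chain of MHC class II, and lies on chromosome 3 (95526786 to 95556403, mm10). Its level was 12.4 CPM (control), 53.5 CPM (8 weeks) and 40.7 CPM (12 weeks), from 168, 766 and 539 counts. Both treated libraries thus stood well above the control, 4.32-fold at 8 weeks (interval 3.65 to 5.13) and 3.29-fold at 12 weeks (2.76 to 3.93), with log2 ratios of 2.03 and 1.64. Ctss is known to be abundant in macrophages, and the Kupffer cell markers had median log2 ratios of 1.69 at 8 weeks and 1.36 at 12 weeks. Their part in the Ctss value was not tested. Lgmn, the asparaginyl endopeptidase legumain that matures other cathepsins (chromosome 12, 102394084 to 102439813), had 16.9, 34.2 and 25.2 CPM. Its fold at 8 weeks was 2.03 (1.73 to 2.38), but with 1 CPM added the log2 ratio of 0.98 fell just short of the call, and at 12 weeks it was 0.55. Ctsc, the dipeptidyl peptidase that activates granule serine proteases (chromosome 7, 88278085 to 88310888), had 33.2, 61.1 and 46.2 CPM. Like Ctss and Lgmn it was highest at 8 weeks, 1.84-fold the control (1.64 to 2.07), and lower at 12 weeks, 1.39-fold (1.23 to 1.58).

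Of the other proteases, Ctsz and Tpp1 were lower in both treated libraries, and Ctsb and Ctsl were higher in both. Ctsz (chromosome 2, 174427493 to 174439039) had 202, 140 and 172 CPM. The 8-week library was thus the lowest, at 0.692-fold the control (0.653 to 0.734), and 12 weeks lay between. Tpp1, the tripeptidyl peptidase lost in a childhood neuronal storage disease (chromosome 7, 105744811 to 105752235), showed the same order with 134, 101 and 119 CPM, 0.750-fold at 8 weeks (0.699 to 0.804). Ctsl (chromosome 13, 64363214 to 64370306) had 649, 682 and 795 CPM, and 12 weeks was the highest library, 1.23-fold the control (1.19 to 1.26). Ctsb, a cysteine protease that shares 767 exonic bases with the opposite-strand gene Fdft1, had log2 ratios of 0.42 and 0.37 (1.34-fold, 1.28 to 1.40, and 1.29-fold, 1.23 to 1.36). Fdft1 itself had 818, 1680 and 674 counts, with the 8-week library highest, and Ctsb had 3203, 4540 and 4044. The aspartic protease Ctsd (0.19 and 0.06), Ctsh (0.14 and -0.11) and the protective protein Ctsa (-0.07 and -0.20) had small log2 ratios at 8 and 12 weeks. On the opposite strand, Ctsa shares 495 exonic bases (10.5% of its length) with Pltp and 324 with Neurl2. Pltp had 228, 959 and 565 counts and Neurl2 32, 26 and 25, beside 1307, 1313 and 1112 for Ctsa. Their part in the Ctsa value was not tested. Ctsd shares 34.4% of its exonic length with the same-strand model RP23-145I16.3. That model had 1073, 1375 and 1155 counts beside 1707, 2055 and 1738 for Ctsd, whose level is uncertain where the counting split shared reads.

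Among the 9 glycosidases, Glb1 and Gaa had the widest differences, in opposite directions. Glb1 encodes lysosomal beta-galactosidase, whose activity at acid pH is also read as a senescence stain (chromosome 9, 114401076 to 114474898). It was a low gene with 38, 114 and 82 counts, or 2.80, 7.96 and 6.19 CPM. The fold was 2.84 at 8 weeks (1.95 to 4.22) and 2.21 at 12 weeks (1.49 to 3.34), and the log2 ratios of CPM + 1 were 1.24 and 0.92, so the 12-week value missed the call. With 5 CPM added in place of 1, the 8-week value missed it too (0.73). Glb1 shares 165 exonic bases with the same-strand gene Tmppe, which had 17, 26 and 20 counts. Gaa, the acid alpha-glucosidase that degrades glycogen in lysosomes (chromosome 11, 119267887 to 119285454), had 66.0, 39.7 and 41.7 CPM. Both treated libraries lay below the control, at 0.602-fold (0.541 to 0.670) and 0.632-fold (0.567 to 0.703), the lowest log2 ratios of any member at both times (-0.72 and -0.65). Neu1, the lysosomal sialidase, had 71.0, 60.3 and 58.3 CPM (0.849-fold and 0.820-fold). Idua, which cleaves iduronic acid from heparan and dermatan sulfate, had 12.5, 11.03 and 8.76 CPM, 0.703-fold at 12 weeks (0.550 to 0.896). It shares exonic bases with Slc26a1 and Dgkq on the opposite strand, of which Slc26a1 had 1734, 2112 and 1742 counts and Dgkq, lowest at 12 weeks like Idua, had 482, 394 and 314. Their part in the Idua value was not tested. Gla, with 39, 31 and 42 counts, had a fold of 0.753 at 8 weeks whose interval (0.454 to 1.24) held 1, and no difference was detectable at this depth. The others, Gusb, Hexa, Man2b1 and Naglu, had log2 ratios from -0.02 to 0.48 at 8 weeks and from 0.10 to 0.28 at 12 weeks.

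Sulfatases remove sulfate from glycosaminoglycans and sulfatides, and the 4 members split into 2 that differed and 2 that hardly did. Arsb, which acts on dermatan and chondroitin sulfate (chromosome 13, 93771679 to 93943016), had 18.1, 33.7 and 22.05 CPM. Only the 8-week library was clearly high, 1.86-fold the control (1.59 to 2.18), and 12 weeks stood at 0.654-fold of 8 weeks (0.564 to 0.758), the lowest 12-against-8-week ratio of any member. However, 48.8% of its exonic length is shared with the opposite-strand model Gm26527, which had 79, 155 and 65 counts. Arsa, which acts on sulfatides (chromosome 15, 89472476 to 89477425), had 80.04, 51.7 and 61.6 CPM, 0.646-fold at 8 weeks (0.588 to 0.710) and 0.770-fold at 12 weeks (0.702 to 0.844). It shares 690 exonic bases with C230037L18Rik on the opposite strand, or 18.8% of its exonic length. C230037L18Rik had 565, 255 and 347 counts, also lowest at 8 weeks, and its part in the Arsa value was not tested. Ids, the iduronate sulfatase, had 30.1, 29.1 and 25.7 CPM, and Galns had 55, 70 and 58 counts with intervals that held 1 at both times.

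Lipid enzymes and their helpers differed modestly. Npc2, a small soluble protein that hands cholesterol to the membrane protein Npc1 (chromosome 12, 84754560 to 84773112), had 67.6, 96.1 and 90.3 CPM. Both treated libraries were above the control, 1.42-fold (1.31 to 1.55) and 1.34-fold (1.23 to 1.46). Npc1, its partner that moves cholesterol out of the lysosome, had 212, 191 and 171 CPM, or 0.902-fold (0.855 to 0.9503) and 0.808-fold (0.765 to 0.855). The 2 partners therefore lay on opposite sides of the control in both treated libraries, neither by as much as 1.5-fold. Lipa, the acid lipase that frees cholesterol and fatty acids from lipoprotein lipids (chromosome 19, 34492318 to 34527474), had 207, 199 and 147 CPM. The 12-week library alone was low, 0.709-fold the control (0.669 to 0.751) and 0.737-fold the 8-week library (0.695 to 0.781). Psap (chromosome 10, 60277627 to 60302597) had 234, 210 and 188 CPM, 0.803-fold at 12 weeks (0.761 to 0.846). The thioesterase Ppt1 had log2 ratios of 0.38 and 0.35 at 8 and 12 weeks, acid ceramidase Asah1 0.48 and 0.12, acid sphingomyelinase Smpd1 0.13 and 0.28, and galactosylceramidase Galc -0.02 and -0.17.

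The membrane proteins had the narrowest range of the 5 role groups with more than 1 gene, with log2 ratios from -0.22 to 0.15 at 8 weeks and from -0.31 to 0.17 at 12 weeks. Lamp1 (chromosome 8, 13159161 to 13175338) had 666, 739 and 749 CPM, 1.11-fold (1.08 to 1.14) and 1.12-fold (1.09 to 1.16) the control. It shares 249 exonic bases (9.31% of its length) with the opposite-strand gene Grtp1. Grtp1 had 854, 953 and 932 counts beside 9036, 10594 and 9922 for Lamp1, and its part in the Lamp1 value was not tested. Lamp2, which also serves chaperone-mediated autophagy (chromosome X, 38401357 to 38456454), had 594, 526 and 503 CPM, 0.886-fold (0.858 to 0.914) and 0.846-fold (0.819 to 0.874). The 2 LAMP genes, of similar CPM, thus stood on opposite sides of the control by a small margin. Mcoln1, the calcium channel of the lysosomal membrane (chromosome 8, 3500457 to 3515232), had 45.4, 38.9 and 39.7 CPM. Scarb2, the sorting receptor of beta-glucocerebrosidase, had log2 ratios of -0.04 and -0.17.

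Tfeb itself, on chromosome 17 (47737030 to 47792419), had 69, 64 and 66 counts, or 5.09, 4.47 and 4.98 CPM. Its fold was 0.878 at 8 weeks (0.615 to 1.25) and 0.980 at 12 weeks (0.689 to 1.39), so no difference in its transcript was detectable at this depth. TFEB is regulated largely by phosphorylation and location in the cell, which transcript counts do not read. The 11 members with a CACGTG match had a median log2 ratio of -0.02 at 8 weeks, from -0.72 (Gaa) to 1.24 (Glb1), and the 20 without a match had -0.03, from -0.53 (Ctsz) to 2.03 (Ctss). At 12 weeks the medians were 0.11, from -0.65 to 0.92, and -0.10, from -0.49 to 1.64. Members with the motif thus included both the lowest gene and the second highest.

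When the 36 were split into 3 groups of 12 by their mean level per kb over the 3 libraries, the median log2 ratios at 8 weeks were 0.11 in the upper, -0.04 in the middle and 0.05 in the lower group. At 12 weeks they were -0.02, -0.17 and 0.10, another order. At 8 weeks the upper group ran from -0.53 to 2.03, the middle from -0.72 to 0.98 and the lower from -0.29 to 1.24. The mean holds the treated libraries that also enter the ratios, so this split is not independent of the ratios. Ctss, 19th per kb in the control, was thereby placed in the upper group.

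Beyond the 36, the wider lysosomal and autophagy lists also had medians near 0, with a few genes far from it. Beside the counts of calls below, 4.15% of all kept genes were higher and 2.1% lower at 8 weeks. At 12 weeks the shares were 3.11% and 1.34%. Among 34 kept genes for other lysosomal hydrolases, 2 were higher at 8 weeks and at 12 weeks and 1 was lower at 12 weeks (medians 0.15 and 0.05). Ctse, an aspartic protease of immune and epithelial cells, had 5, 228 and 52 counts, 43.2-fold at 8 weeks (18.2 to 134) and 10.7-fold at 12 weeks (4.28 to 34.2). Ctsk, the collagen-degrading cathepsin of osteoclasts, had 0, 22 and 15 counts, at least 6.94-fold and 5.12-fold higher against a floor of 3 counts in the control library, and putting it at that bound left the list medians as given. Ctse and Ctsk, at 0.368 and 0 CPM in the control, passed the filter only through treated libraries. Neither could therefore have been called lower against the control. At 12 weeks against 8 weeks, Ctse was called lower (0.247-fold, 0.179 to 0.335). It was the 1 call among the 34 in that comparison (all kept genes lower, 1.23%). Arsg, a sulfatase, had 147, 113 and 50 counts, 0.348-fold at 12 weeks (0.248 to 0.483), and shares 48 exonic bases with Slc16a6 on the opposite strand. Among 18 kept subunits of the V-ATPase, the proton pump that acidifies the lysosome, 1 was higher at each time (medians -0.04 and -0.01). This was Atp6v0d2, a subunit known from macrophages and osteoclasts, with 3, 67 and 30 counts, 21.1-fold (6.93 to 105) and 10.2-fold (3.19 to 52.5). Atp6v0d2 too passed the filter only through treated libraries (0.221 CPM in the control).

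Of 25 kept genes for other lysosomal membrane and transport proteins, Slc11a1, a metal transporter of phagocyte lysosomes, was the 1 called at 8 weeks, with 20, 60 and 42 counts (2.84-fold, 1.69 to 4.98). None of the 25 was called at 12 weeks, and the medians were -0.06 and -0.03. Of 14 genes for mannose-6-phosphate tagging and sorting, 0 were called at either time (medians 0.03 and -0.11), and the cation-dependent receptor M6pr had 95.4, 96.6 and 93.0 CPM and the retromer subunit Vps26a 55.9, 57.9 and 52.2 CPM. Among 21 kept genes of the TFEB family and its controllers, 2 were higher at 8 weeks and 0 at 12 weeks (medians 0.02 and 0.10). Tfec, the relative of Tfeb that is largely restricted to macrophages, had 10, 42 and 31 counts, 3.98-fold at 8 weeks (1.96 to 8.89). At 0.737 CPM in the control, Tfec passed the filter only through treated libraries. Fnip2, a partner of folliculin in nutrient signalling at the lysosome, had 27.0, 59.5 and 44.1 CPM, with a log2 ratio of 1.11 at 8 weeks. Of 30 autophagy genes 0 were called (medians -0.06 and 0.03). Over all kept genes 4.15% were higher and 2.1% lower at 8 weeks, and 3.11% and 1.34% at 12 weeks. At those shares, lists as short as these hold few calls. Sqstm1, the cargo receptor p62, had 395, 210 and 275 CPM, 0.532-fold at 8 weeks (0.509 to 0.556), just short of the call, and Rab7, which drives fusion with the lysosome, had 404, 434 and 419 CPM.

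**Figure D4:**
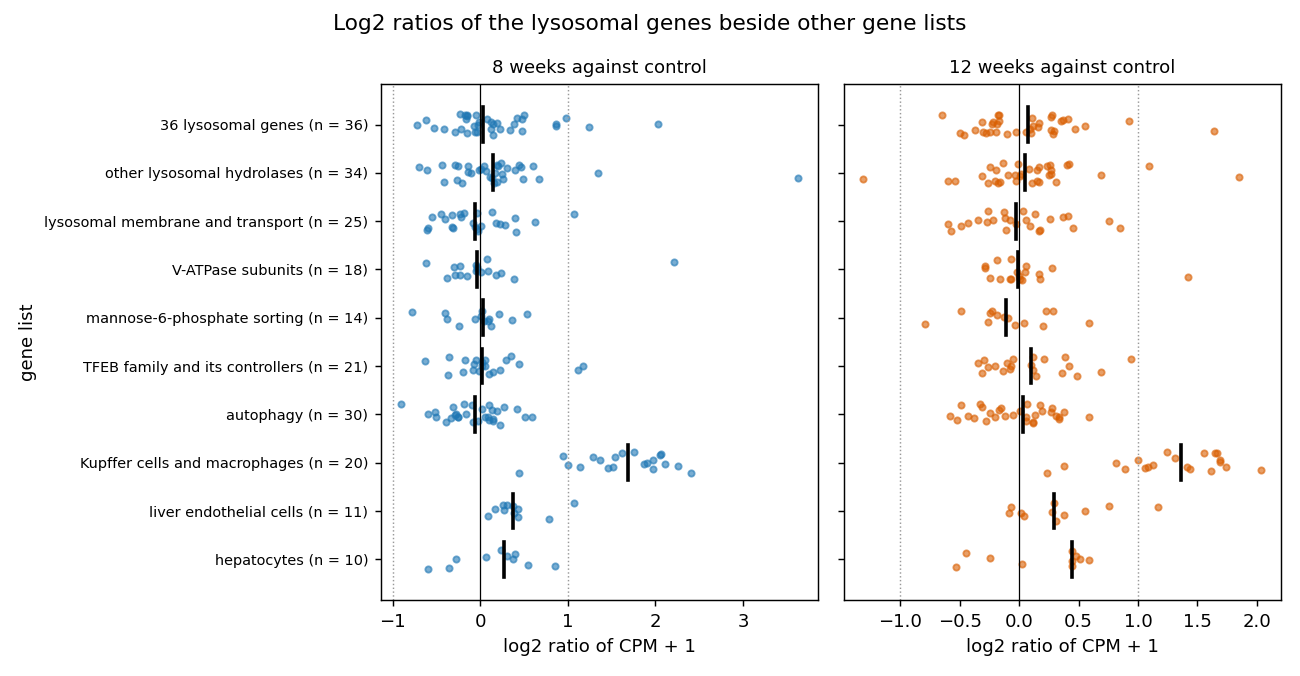
Log2 ratio of CPM + 1 of each kept gene (points) in the lysosomal list, 6 related lists and 3 marker lists, at 8 weeks (left) and 12 weeks (right) against the control, with the median as a black bar and dotted lines at 2-fold. The lysosomal and autophagy medians lie between -0.11 and 0.15, and the Kupffer cell markers have medians of 1.69 and 1.36.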

How the data were processed

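RNA from livers was sequenced in 3 libraries, 1 per group. The labels' protocols name a TruSeq kit from Illumina. The authors deposited estimated counts per gene without normalization, per the file headers, and 25 of the 36 members have a fractional count in at least 1 library. Both mm9 and mm10 appear as builds in the submitters' processing notes, with Cufflinks (2.2.1.0) and TopHat2 (2.1.0) as tools. How reads were counted, and whether by strand, is not given in the sources used here. All 36 members overlap the gene of that name in GENCODE release M21 (GRCm38, mm10), 30 with the same start and end, and 12 share exonic bases with another entry.

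Rounded counts were scaled with the TMM method (factors 0.997, 1.005 and 0.999) using edgeR 4.0.16 under R 4.3.3. Genes at 1 CPM or more in at least 1 library were kept, 1 CPM was added before log2 ratios, and genes were called at 2-fold. A gene under 1 CPM in the control was kept only through a treated library and could not be called lower against the control. Folds and their exact (Clopper-Pearson) 95% intervals have no added CPM. The calls and intervals were run on simulated counts that hold counting error alone (Poisson). Such counts lack variation between animals or PCR copies, so that run cannot show how the calls would hold in other animals. The members, gene lists and rules were chosen with earlier results of these data known. Members are printed with every library's value if called, among the 5 highest or lowest ratios of a comparison, or the 2 most abundant of their role, with Tfeb and Mcoln1. Other lists give up to 4 called genes or else the 2 most abundant. Npc1, Slc26a1, Fdft1 and the other overlapping entries were named after their values were seen. Alternatives were DESeq2 1.42.0 size factors, other scalings, pseudocounts, filters and a 1.5-fold call.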

Additional observations from a re-analysis of the deposited data

Results flagged for a closer look

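Ctsh, an aminopeptidase among the cathepsins, was the 1 member whose counting intervals lay on opposite sides of the control at the 2 times. It had 1915 counts in the control, 2230 after 8 weeks and 1737 after 12 weeks of ZnO nanoparticles. The log2 ratio was 0.14 at 8 weeks (1.10-fold, 1.04 to 1.17) and -0.11 at 12 weeks (0.929-fold, 0.870 to 0.992). The difference between the 2 times was not tested, since each is 1 library, and both ratios rest on the same control.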

How the results depend on the processing

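No paired analysis was possible because each group has 1 library. The members called higher at 8 weeks numbered 2, and 1 with a pseudocount of 5 CPM or a filter of 10 CPM (Glb1 was lost in both), 3 with 0.25 CPM (Lgmn added), and 5 at 1.5-fold, where 2 were lower. At 12 weeks the count of 1 became 2 with 0.25 CPM (Glb1 added) and 2 at 1.5-fold, with 1 lower. Between 12 and 8 weeks 0 became 1 lower at 1.5-fold. The members' median at 12 weeks was 0.08 and became -0.11 under the filter of 10 CPM, which kept 31 of the 36, a change of sign. Over all genes, 2-fold higher and lower calls numbered 605 and 307 at 8 weeks (965 and 524 with 0.25 CPM, 269 and 160 with 5 CPM), 454 and 196 at 12 weeks (801 and 359, 179 and 80), and 186 and 180 between them (393 and 329, 89 and 72). Among alternatives chosen after seeing the data, using only the 24 members that share no exonic base with another entry left 1 higher at 8 weeks (Glb1 was dropped) and put the 8-week median at -0.02 in place of 0.03, while unrounded counts and scaling over each pair of libraries left the counts of calls as they were. DESeq2, total-count and upper-quartile scaling also left these counts as they were, and no called member changed sign under any alternative run. Depth limits the lowest members (Gla, Glb1, Galns, Tfeb and Naglu), which had 31 to 114 counts a library.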
